A study of Anser cygnoides with 12 samples.

Results

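The jejunum of geese fed the high wheat germ diet (HWG group) was compared with that of geese fed the low wheat germ diet (LWG group), with 4 geese in each group, or 8 of the 12 geese sequenced. All genes left by a filter on low counts were tested, which came to 14863 of the 18007 genes in the table. The HWG group received 43.6% wheat germ and the LWG group 21.8%. The 4 geese of the Con group, which received a diet without added wheat germ, were kept in the same fit to estimate the spread between geese. Groups follow GEO's labels, and a doubt about the Con and LWG labels is set out with the Con values below. All birds were female Sichuan white geese, 250 days old when assigned to the diets and then fed for 12 weeks before sampling. Nothing in the labels describes a shared cage, batch or day. As wheat germ was added, soybean meal and soybean oil were reduced in the feed, so that the dose of wheat germ and the rest of the diet cannot be told apart.

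The jejunum takes up most nutrients. Its villi are covered by enterocytes, whose brush border carries the enzymes that finish the digestion of sugars and peptides, and these cells are renewed from crypts at the base of the villi under Wnt signals. Beneath the epithelium lie a matrix made by fibroblasts, blood and lymph vessels, nerves and layers of smooth muscle. Bile acids are recovered mainly toward the distal end of the small intestine. The roles given for genes are those known from mammals or chicken.

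The total deposited count was 40531677 to 45686956 in the HWG libraries and 40243859 to 44707504 in the LWG libraries. A level is given as CPM (deposited counts scaled to a common library size) after scaling of the libraries, and a log2 fold change is HWG over LWG with its standard error (SE). Libraries of the same group did not resemble each other much more than libraries of different groups, since log2 CPM correlated with a mean of 0.952 between HWG geese, 0.950 between LWG geese and 0.945 between HWG and LWG geese. As the tissue is bulk, fewer cells of a type and less RNA per cell cannot be told apart. In edgeR's quasi-likelihood test with diet as the only term and all geese, nothing was called between the groups at an adjusted p under 0.05. DESeq2 and some other edgeR fits did call genes, as given below. Differences are therefore described at an unadjusted p under 0.05 in that edgeR test and read against the share of all genes that reached it.

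Several libraries stood apart within their own group. GATA4, a transcription factor of the proximal small intestine in mice, was measured at 27.5, 36.6, 73.8 and 0.0655 CPM in HWG geese 1 to 4 and at 0.437, 0, 49.8 and 43.6 CPM in LWG geese 1 to 4. HOXA10, a homeobox gene of the distal gut in mammals, was measured at 0.0664, 0.166, 0 and 35.6 CPM in the HWG geese and at 5.75, 30.8, 0.128 and 0 CPM in the LWG geese. HWG geese 1, 2 and 3 and LWG geese 3 and 4 thus had more GATA4, whereas HWG goose 4 and LWG geese 1 and 2 had more HOXA10, and every sample is labelled jejunum. ACTG2, the actin of visceral smooth muscle, stood at 6572, 10960, 1059 and 2593 CPM in the HWG geese and at 1201, 1462, 2386 and 5511 CPM in the LWG geese. Summed over 28 smooth muscle genes, the range was 9292 to 45630 CPM in HWG and 12140 to 22530 CPM in LWG, with HWG geese 1 and 2 the highest. HWG goose 3 differed from the other HWG geese in its brush border genes, which summed to 18320 CPM there, against 3839 to 4216 CPM in HWG geese 1, 2 and 4, and 13740 to 19470 CPM in the LWG geese. Epithelial markers were present in every library, with sums of 5213 to 8629 CPM in HWG and 5214 to 7566 CPM in LWG. Of 10 pancreatic and liver markers, 7 were under 1 CPM in all 8 libraries. All 10 together summed to 125 to 160.1 CPM in HWG and to 142.7 to 225.8 CPM in LWG.

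**Figure D1:**
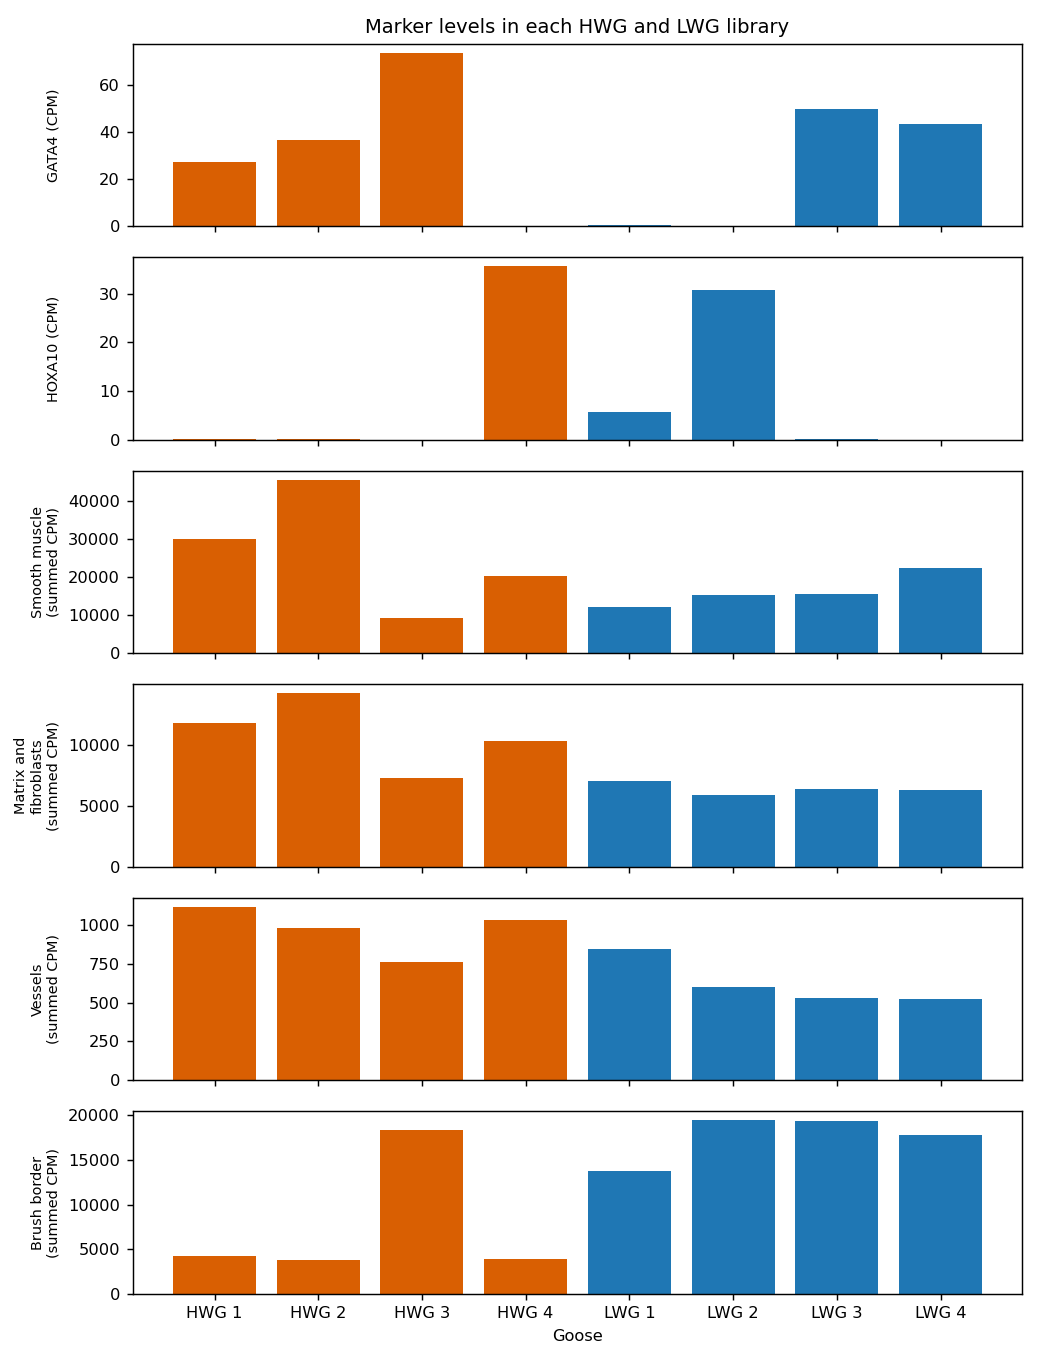
Bars give the level of GATA4 and HOXA10 (CPM) and the summed CPM of the smooth muscle, matrix and fibroblast, vessel and brush border lists, with 1 bar for each goose of the HWG (orange) and LWG (blue) groups. The brush border sum of HWG goose 3 (18320 CPM) lies within the range of the LWG geese (13740 to 19470 CPM), and the smooth muscle sum is highest in HWG goose 2 (45630 CPM).

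Compared to the LWG group, 765 genes were higher in HWG at an unadjusted p under 0.05 (5.15% of those tested) and 804 were lower (5.41%), or 10.6% in all. None passed an adjusted p under 0.05 in edgeR's quasi-likelihood test, where the smallest adjusted p was 0.306. DESeq2, run on the same counts, called 45 genes higher and 65 lower at an adjusted p under 0.05, and limma on log2(FPKM + 0.1) called 0. The limma fit also gave another balance of directions, with 1127 genes higher and 516 lower at that unadjusted threshold (68.6% higher, against 48.8% in edgeR), and its median over all genes lay 0.16 above 0 on the log2 scale. Without HWG goose 3, edgeR called 31 genes higher and 77 lower at an adjusted p under 0.05. In that fit, 1465 higher and 1539 lower genes reached the unadjusted threshold. The count of lower genes was 418 without HWG goose 1, 476 without HWG goose 2, 529 without HWG goose 4, 515 without LWG goose 3 and 530 without LWG goose 4. At the fold limits of the study's methods (above 1.5 or below 0.5) and the same p, 549 genes were higher and 303 lower. These limits are unequal on the log2 scale. Beyond a log2 fold change of 1 in either direction, 157 genes were higher and 303 lower, and beyond 1.5, 55 were higher and 140 lower. The groups did not overlap in 363 genes with HWG above (2.44%) and in 289 genes with HWG below (1.94%), or 4.39% in all. In the same fit, 985 genes (6.63%) reached an unadjusted p under 0.05 between LWG and Con and 619 (4.16%) between HWG and Con.

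Of the 10 named genes with the smallest p that were higher in HWG, HTRA1, a secreted protease that binds growth factors of the TGF-beta family, came first. It stood at 284, 198, 168 and 223 CPM in HWG geese 1 to 4, against 116, 102, 74.0 and 93.7 CPM in LWG geese 1 to 4, so that every HWG goose was above every LWG goose (log2 fold change 1.18, SE 0.20, unadjusted p = 5.64e-05, adjusted p = 0.306 in edgeR). THBS1, a matrix glycoprotein that restrains vessel growth, was at 609, 593, 456 and 562 CPM in HWG and at 336, 230, 258 and 270 CPM in LWG (log2 fold change 1.02, SE 0.19, unadjusted p = 9.70e-05). GJA1, the gap junction protein connexin 43, was at 82.4, 105, 61.4 and 87.8 CPM in HWG and at 49.4, 43.2, 39.8 and 36.9 CPM in LWG (log2 fold change 0.99, SE 0.18, unadjusted p = 0.000103). In each of these genes HWG goose 3 was the lowest of its group and still above the LWG geese. The others were PLXDC2, PDGFD (a ligand of the platelet-derived growth factor receptors), CDH5, SMOC1 (a basement membrane protein), AFAP1L1, CPED1 and TP53I11, with log2 fold changes of 1.17, 1.06, 1.02, 1.04, 1.15, 1.12 and 1.14. In all 10 genes every HWG goose was above every LWG goose, against 2.44% of all genes, but the 10 were picked by their p in these libraries.

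On the lower side, PGAP1 had the smallest p of its 10 genes. This enzyme, which remodels the anchor of membrane proteins in the endoplasmic reticulum, was at 3.67, 3.89, 10.7 and 5.70 CPM in HWG and at 26.8, 26.3, 15.2 and 18.9 CPM in LWG (log2 fold change -1.86, SE 0.33, unadjusted p = 7.45e-05, adjusted p = 0.306 in edgeR). TMIGD1, an adhesion protein of the enterocyte brush border, was at 148, 133, 427 and 219 CPM in HWG and at 1049, 1187, 886 and 961 CPM in LWG (log2 fold change -2.14, SE 0.42, unadjusted p = 0.00022). PCGF5, a subunit of a Polycomb repressive complex, was at 7.08, 10.9, 12.3 and 10.2 CPM in HWG and at 21.5, 20.2, 25.6 and 29.7 CPM in LWG (log2 fold change -1.26, SE 0.25, unadjusted p = 0.000197). HWG goose 3 was the highest of its group in all of these genes, and none of them overlapped with LWG. FAM3B, ASZ1, NEURL1, SEC16B, TSPAN1, ARHGEF37 and FAM126B completed the 10, with log2 fold changes of -1.59, -2.58, -1.12, -1.72, -1.22, -0.86 and -1.33. ASZ1, a germ cell gene of low level here, was at 0.443, 0.311, 0.304 and 0.589 CPM in HWG and at 4.02, 2.19, 1.69 and 1.99 CPM in LWG. SEC16B, which organises the sites where secreted proteins leave the endoplasmic reticulum, was at 24.6, 16.1, 27.5 and 12.2 CPM in HWG and at 39.2, 87.2, 96.5 and 42.7 CPM in LWG. LOC106035109, which has no gene symbol and was singled out after its values were seen, was at 8.54, 13.7, 13.4 and 12.5 CPM in HWG and at 21.0, 25.1, 32.0 and 34.3 CPM in LWG (unadjusted p = 0.000102). The adjusted p of the 20 symbol genes ranged over 0.306 to 0.338 in edgeR. All 20 were called by DESeq2 at an adjusted p under 0.05, and 14 by edgeR without HWG goose 3. The 20 were picked by their p in the same libraries, so neither these calls nor the separation of the groups is independent support.

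**Figure D2:**
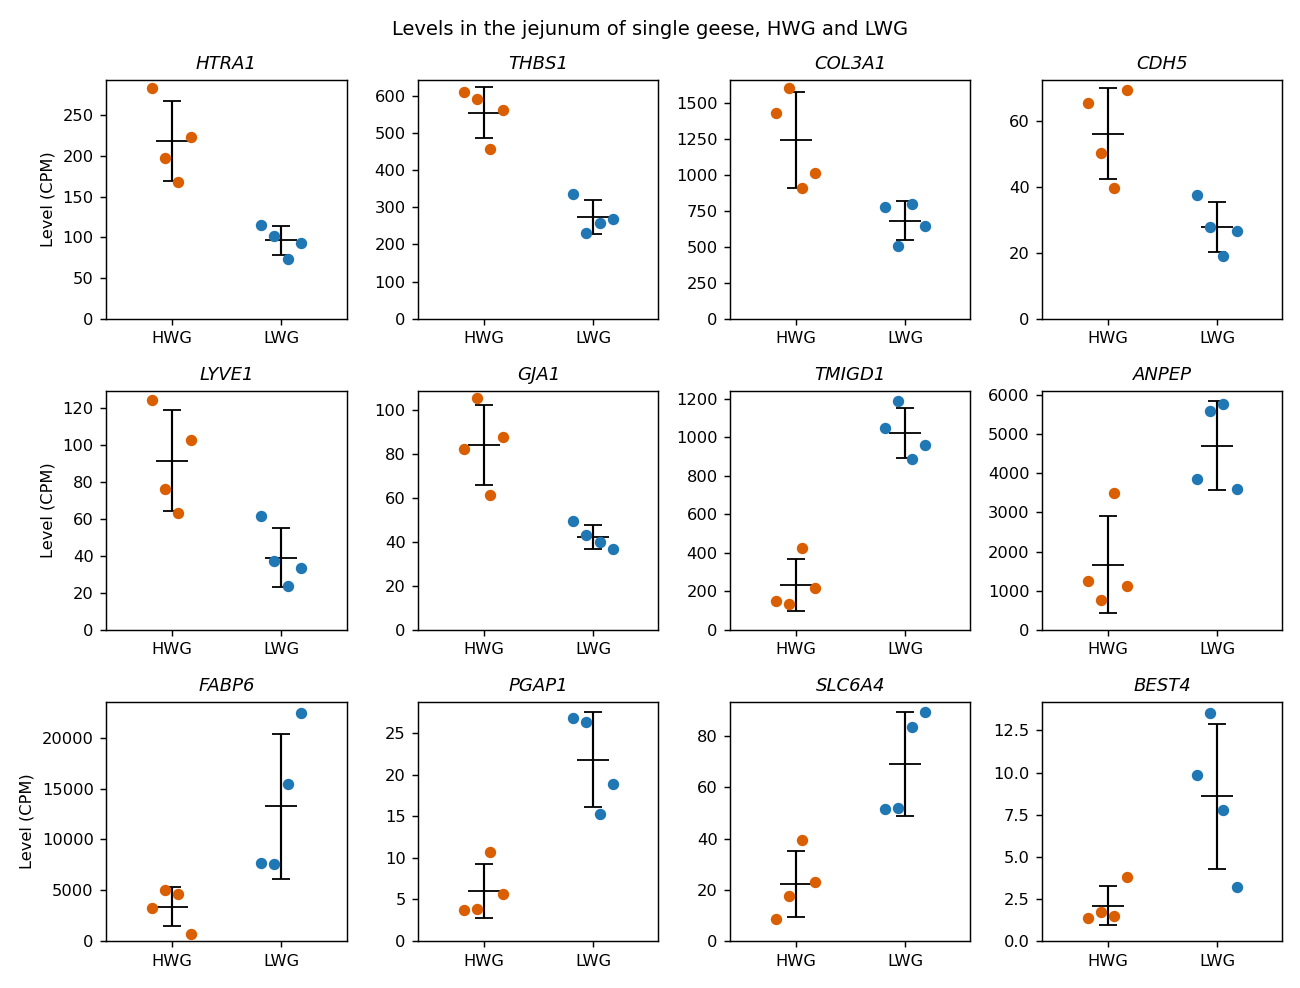
Points give the level (CPM, linear axis from 0) of 12 genes in the 4 HWG (orange) and 4 LWG (blue) geese, with the mean as a long bar and the SD as whiskers. HTRA1, THBS1, GJA1, CDH5, LYVE1 and COL3A1 are higher in every HWG goose, TMIGD1, PGAP1, ANPEP, FABP6 and SLC6A4 lower in every HWG goose, and BEST4 overlaps between the groups.

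Matrix genes of the gut wall lay mostly above 0. Of 45 tested matrix and fibroblast genes, 31 were higher in HWG past the unadjusted threshold and 0 were lower, against 5.15% higher over all genes, and 43 had a log2 fold change above 0, with a median of 0.82 (0.01 over all genes). The groups did not overlap in 12 of the 45, all with HWG above, against 2.44% of all genes. COL3A1, a fibrillar collagen, was at 1434, 1608, 908 and 1014 CPM in HWG and at 777, 505, 801 and 643 CPM in LWG (log2 fold change 0.86, SE 0.25, unadjusted p = 0.00439). The basement membrane collagen COL4A1 was at 699, 797, 406 and 634 CPM in HWG and at 354, 318, 374 and 394 CPM in LWG (log2 fold change 0.82, SE 0.27, unadjusted p = 0.00895). MMP2, a protease that cuts matrix proteins, was at 388, 315, 247 and 295 CPM in HWG and at 240, 150, 168 and 116 CPM in LWG (log2 fold change 0.88, SE 0.25, unadjusted p = 0.00383). In these 3 genes the groups were apart, by a narrow margin in COL4A1 (406 CPM in HWG goose 3 and 394 CPM in LWG goose 4).

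Other matrix genes differed in size but overlapped more. MGP, an inhibitor of calcification, had a log2 fold change of 1.35, with 249, 92.2, 62.1 and 170 CPM in HWG and 49.6, 68.5, 67.5 and 39.3 CPM in LWG, so that HWG goose 3 lay within the LWG range. COL1A2 was at 733, 891, 353 and 506 CPM in HWG and at 308, 263, 436 and 397 CPM in LWG (log2 fold change 0.82, SE 0.32, unadjusted p = 0.0225). FN1, fibronectin, was at 649, 1452, 507 and 652 CPM in HWG and at 556, 359, 382 and 428 CPM in LWG (log2 fold change 0.92, SE 0.34, unadjusted p = 0.0185). COL3A1, COL4A1 and COL1A2 were highest in HWG geese 1 and 2, which also had the highest smooth muscle sums, whereas MGP was highest in HWG geese 1 and 4. PDGFRA, the receptor that marks fibroblasts beneath the epithelium, followed another order, with 82.7, 76.1, 86.6 and 103 CPM in HWG and 86.5, 45.4, 38.3 and 29.4 CPM in LWG. Without HWG geese 1 and 2, 12 members reached the threshold and the median was 0.50, and without HWG goose 3 there were 34 and the median was 1.02. The smooth muscle list itself had a median of 0.52, with 4 of 28 members higher (ITGA8, TPM2, KCNMA1 and LMOD1, or 14.3%, against 5.15% over all genes) and 0 lower. Without HWG geese 1 and 2 the median of this list was -0.03. ACTG2 did not differ beyond the spread (log2 fold change 1.004, SE 0.70, unadjusted p = 0.174) and its fold change was -0.51 without those geese. The part of muscle content in the matrix result was not tested.

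Vessel genes followed the matrix genes. Of 26 tested genes of blood and lymph vessels, 14 were higher in HWG past the unadjusted threshold (53.8%, against 5.15% over all genes) and 0 were lower, 24 had a log2 fold change above 0, and the median was 0.59. CDH5, the cadherin that joins endothelial cells, was at 65.7, 50.4, 39.6 and 69.4 CPM in HWG and at 37.5, 27.8, 19.1 and 26.8 CPM in LWG (log2 fold change 1.02, SE 0.22, unadjusted p = 0.000393). LYVE1, the hyaluronan receptor of lymph vessels, was at 124, 75.8, 63.0 and 103 CPM in HWG and at 61.5, 37.3, 23.8 and 33.1 CPM in LWG (log2 fold change 1.23, SE 0.29, unadjusted p = 0.000869). ANGPT2, a ligand that loosens vessel walls, was at 77.9, 79.9, 44.8 and 46.9 CPM in HWG and at 38.1, 15.9, 29.0 and 30.5 CPM in LWG (log2 fold change 1.14, SE 0.27, unadjusted p = 0.000881). The groups did not overlap in any of the 3, nor in PECAM1 (log2 fold change 0.69) and SOX7 (log2 fold change 1.51), which made 5 of 26, against 2.44% of all genes. The receptors TEK, which binds ANGPT2, KDR and FLT4, which bind vascular growth factors of the VEGF family, had log2 fold changes of 0.84, 0.91 and 0.76 and overlapped between the groups. LWG goose 1 had the highest level of its group in CDH5, LYVE1, TEK, KDR and FLT4, and without it 17 members were higher. Without HWG goose 4 there were 8, without HWG goose 1 or LWG goose 4 there were 9, and without HWG geese 1 and 2 together there were 6.

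**Figure D3:**
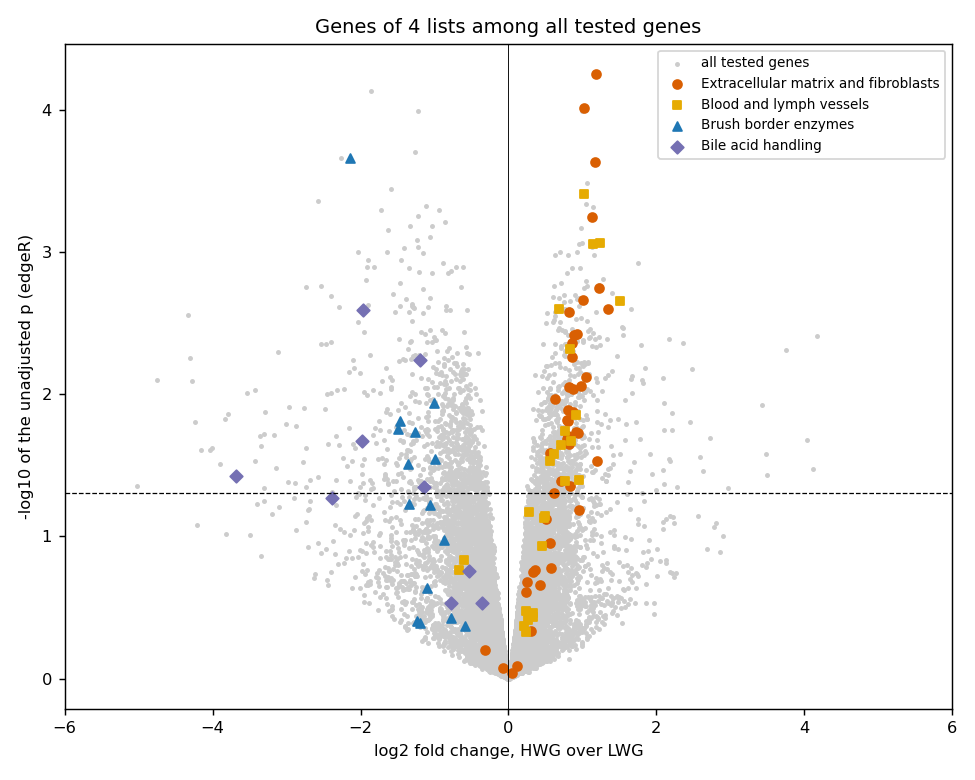
Each point is a tested gene, placed by its log2 fold change of HWG over LWG and by -log10 of its unadjusted p (edgeR), with matrix and fibroblast, vessel, brush border and bile acid genes marked and the dashed line at a p of 0.05. Most matrix and vessel genes lie on the higher side (43 of 45 and 24 of 26) and all brush border and bile acid genes on the lower side, and 11 genes beyond a log2 fold change of 6 are outside the plot.

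Brush border genes lay on the other side. All 15 tested members had a log2 fold change below 0, with a median of -1.19, and 7 were lower in HWG at an unadjusted p under 0.05, against 5.41% lower over all genes, with 0 higher. Besides TMIGD1 these were the peptidases ANPEP, ENPEP, DPP4 and XPNPEP2, the microvillus motor MYO1A and the microvillus cadherin CDHR5. ANPEP was at 1258, 764, 3504 and 1127 CPM in HWG and at 3857, 5591, 5766 and 3598 CPM in LWG (log2 fold change -1.5, SE 0.55, unadjusted p = 0.0177). ENPEP was at 444, 726, 1944 and 668 CPM in HWG and at 1730, 2576, 2464 and 2347 CPM in LWG (log2 fold change -1.27, SE 0.47, unadjusted p = 0.0185). SI, the sucrase-isomaltase that splits sucrose and starch fragments, was at 842, 798, 4008 and 992 CPM in HWG and at 2463, 4051, 3905 and 3418 CPM in LWG and did not reach the threshold (log2 fold change -1.06, SE 0.52, unadjusted p = 0.06035). HWG goose 3 had the highest level of its group in each of these genes, and its level was within the LWG range in ENPEP and SI. Among the remaining members, GGT1, ESPN, ACE, TMPRSS15, LCT and MEP1B had log2 fold changes from -0.59 to -1.34 with unadjusted p of 0.0591 to 0.4295. Without HWG goose 3, 13 members were lower and the median was -2.12, without HWG goose 1 or HWG goose 4 there were 4, and without HWG geese 1 and 2 together TMIGD1 was the 1 member that passed and the median was -0.65.

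Bile acid genes were lower in HWG as well. All 9 tested members had a log2 fold change below 0 (median -1.19) and 5 reached an unadjusted p under 0.05 (55.6%, against 5.41% lower over all genes). FABP6, the bile acid carrier inside ileal enterocytes, was at 3226, 4978, 4638 and 693 CPM in HWG and at 7666, 7546, 15430 and 22450 CPM in LWG (log2 fold change -1.97, SE 0.53, unadjusted p = 0.00255). The subunits of the transporter that passes bile acids to the blood, SLC51A and SLC51B, had log2 fold changes of -1.19 (SE 0.36) and -1.98 (SE 0.76), and both overlapped between the groups. FGF19, the hormone by which the intestine reports bile acids to the liver, was at 1.79, 1.72, 18.8 and 1.38 CPM in HWG and at 12.0, 2.19, 238 and 51.1 CPM in LWG (log2 fold change -3.68, SE 1.59, unadjusted p = 0.0376), so that its mean rested on LWG geese 3 and 4. FGFR4, the receptor of FGF19, had a log2 fold change of -1.14. The uptake transporter SLC10A2 was at 3.45, 4.37, 61.9 and 16.1 CPM in HWG and at 162, 221, 31.0 and 33.5 CPM in LWG and did not reach the threshold (unadjusted p = 0.0537). KLB, NR1H4, the bile acid receptor of the nucleus, and NR0B2 had log2 fold changes of -0.53, -0.36 and -0.77 with unadjusted p of 0.176 to 0.293. The count of 5 moved when 1 library was left out, to 2 without HWG goose 1, to 3 without HWG goose 2, HWG goose 4 or LWG goose 3, and to 2 without HWG geese 1 and 2 together.

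The 4 lists were also compared among libraries of the same GATA4 or HOXA10 balance, as differences of mean log2 CPM. Among the libraries with more GATA4 (HWG geese 1, 2 and 3, and LWG geese 3 and 4), the median difference was 0.75 for matrix genes, 0.78 for vessel genes, -1.52 for brush border genes and -1.68 for bile acid genes. Between HWG goose 4 and LWG geese 1 and 2, which had more HOXA10, it was 0.71, 0.70, -1.84 and -1.64 in the same order. The HOXA10 set holds a single HWG goose, so its differences have no spread among HWG geese and no test. FABP6 differed by -2.15 in the libraries with more GATA4 and by -3.46 in those with more HOXA10, and HTRA1 by 1.35 and 1.04. The groups did not overlap in FABP6 or HTRA1, so no split of the libraries could turn their direction. The lists were chosen with earlier results of these data known, so the split is no independent test. With a term for this balance in the fit, which was chosen after seeing the data, 1189 higher and 1501 lower genes reached the unadjusted threshold, and edgeR called AXIN2 and TP53I11 higher and CYSTM1, HSD17B11 and CA4 lower at an adjusted p under 0.05 (smallest adjusted p = 0.0208).

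Ion transport genes of the enterocyte were lower in part. Of 24 tested genes of chloride, bicarbonate and proton transport, 7 were lower past the unadjusted threshold (29.2%, against 5.41% over all genes) and 0 were higher, with a median of -0.68. BEST4, a bicarbonate channel that marks a rare type of enterocyte in humans, was at 1.37, 1.72, 1.45 and 3.82 CPM in HWG and at 9.83, 13.6, 7.797 and 3.21 CPM in LWG (log2 fold change -2.04, SE 0.48, unadjusted p = 0.00101). OTOP2, a proton channel found in the same human cells, was at 1.93, 0.994, 4.19 and 7.53 CPM in HWG and at 21.9, 42.4, 11.4 and 5.39 CPM in LWG (log2 fold change -2.47, SE 0.72, unadjusted p = 0.00447). The carbonic anhydrase CA7 was at 13.7, 16.1, 39.9 and 38.4 CPM in HWG and at 52.9, 205, 36.3 and 108 CPM in LWG (log2 fold change -1.90, SE 0.50, unadjusted p = 0.00236). In BEST4 and OTOP2 the overlap came from HWG goose 4 and LWG goose 4. CLCN1, CA4, SLC9A2 and CLCN2 had log2 fold changes of -1.89, -1.49, -1.79 and -1.37, and CA4 did not overlap between the groups.

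Among genes of lipid use, more lay below 0 than above, but few reached the threshold. In fatty acid oxidation, 3 of 23 genes were lower (13%, against 5.41% over all genes), 0 were higher and all 23 lay below 0 (median -0.50). PPARA, the transcription factor of this pathway, was at 13.9, 8.70, 26.2 and 15.5 CPM in HWG and at 55.0, 54.7, 24.5 and 56.2 CPM in LWG (log2 fold change -1.57, SE 0.41, unadjusted p = 0.00197), and only HWG goose 3 and LWG goose 3 crossed. Its targets CPT1A and PDK4 had log2 fold changes of -1.02 and -1.17. In cholesterol synthesis, 4 of 18 genes were lower, or 22.2%, against 5.41% over all genes (among them SC5D, HSD17B7 and MSMO1, with log2 fold changes of -0.92, -1.06 and -1.496), all 18 lay below 0 with a median of -0.62 that was -0.18 without LWG goose 3, and MSMO1 was high in LWG geese 3 and 4, with 322 and 375 CPM there and 57.2 and 42.0 CPM in LWG geese 1 and 2. In fat absorption, 3 of 23 genes were lower (SLC27A4, CREB3L3 and AGPAT2, or 13%, against 5.41% over all genes) with a median of -0.71. In fatty acid synthesis the median was -0.26 over 13 genes. FADS6 alone passed and was higher in HWG (7.69% of the list, against 5.15% higher over all genes). It was at 0.952, 0.580, 0.281 and 0 CPM in HWG and 0, 0.0984, 0 and 0 CPM in LWG, levels too low for a fold change. Calcium absorption had 0 of 10 genes past the threshold and a median of -0.33 that was 0.45 without LWG goose 3, and CALB1, the calcium carrier of enterocytes, was at 57.0, 9.59, 998 and 12.2 CPM in HWG and at 13.7, 17.9, 19960 and 51.7 CPM in LWG, so that its direction rested on LWG goose 3.

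Transporters of sugars, peptides and amino acids had a median of -0.55 over 22 genes, with SLC7A2, SLC6A20 and SLC7A6 lower (log2 fold changes -1.02, -1.68 and -0.90) and SLC1A4 higher (0.44). These made 13.6% lower and 4.55% higher, against 5.41% and 5.15% over all genes. In zinc and iron handling, 3 of 19 genes were higher and 2 were lower. SLC40A1, the exporter that passes iron to the blood, was at 192, 165, 201 and 218 CPM in HWG and at 141, 151, 85.0 and 81.0 CPM in LWG (log2 fold change 0.76, SE 0.20, unadjusted p = 0.00252). TF (transferrin) and HMOX1 (heme oxygenase) had log2 fold changes of 1.54 and 0.89, and the zinc transporters SLC39A14 and SLC39A4 had -1.13 and -3.17. SLC39A4, which takes up zinc from the gut lumen, was at 0.443, 0.725, 0.234 and 0 CPM in HWG and at 1.14, 0.197, 7.72 and 3.69 CPM in LWG, so that its level was low throughout. In antioxidant defence, 4 of 28 genes were higher (HMOX1, GPX3, GPX8 and TXNRD3, or 14.3%) and 1 was lower (NQO1, or 3.57%). Over all genes the shares were 5.15% and 5.41%, and the median of the list was -0.05. NQO1, a quinone reductase, was at 7.55, 5.01, 16.3 and 9.14 CPM in HWG and at 21.9, 55.2, 19.7 and 22.8 CPM in LWG (log2 fold change -1.66, SE 0.67, unadjusted p = 0.029). Of 20 polyamine genes, 3 were higher (SMOX, OAZ2 and SRM, or 15%, against 5.15% over all genes) and 0 were lower. SMOX, which oxidises spermine, was at 45.1, 25.8, 22.5 and 29.0 CPM in HWG and at 18.6, 8.84, 12.6 and 16.1 CPM in LWG (log2 fold change 1.13, SE 0.26, unadjusted p = 0.00093). ODC1, the enzyme that makes putrescine, had a log2 fold change of -0.06 (SE 0.21), a direction that turned in limma on FPKM (0.11), and SAT1, which acetylates polyamines, had 0.29 (SE 0.16).

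**Figure D4:**
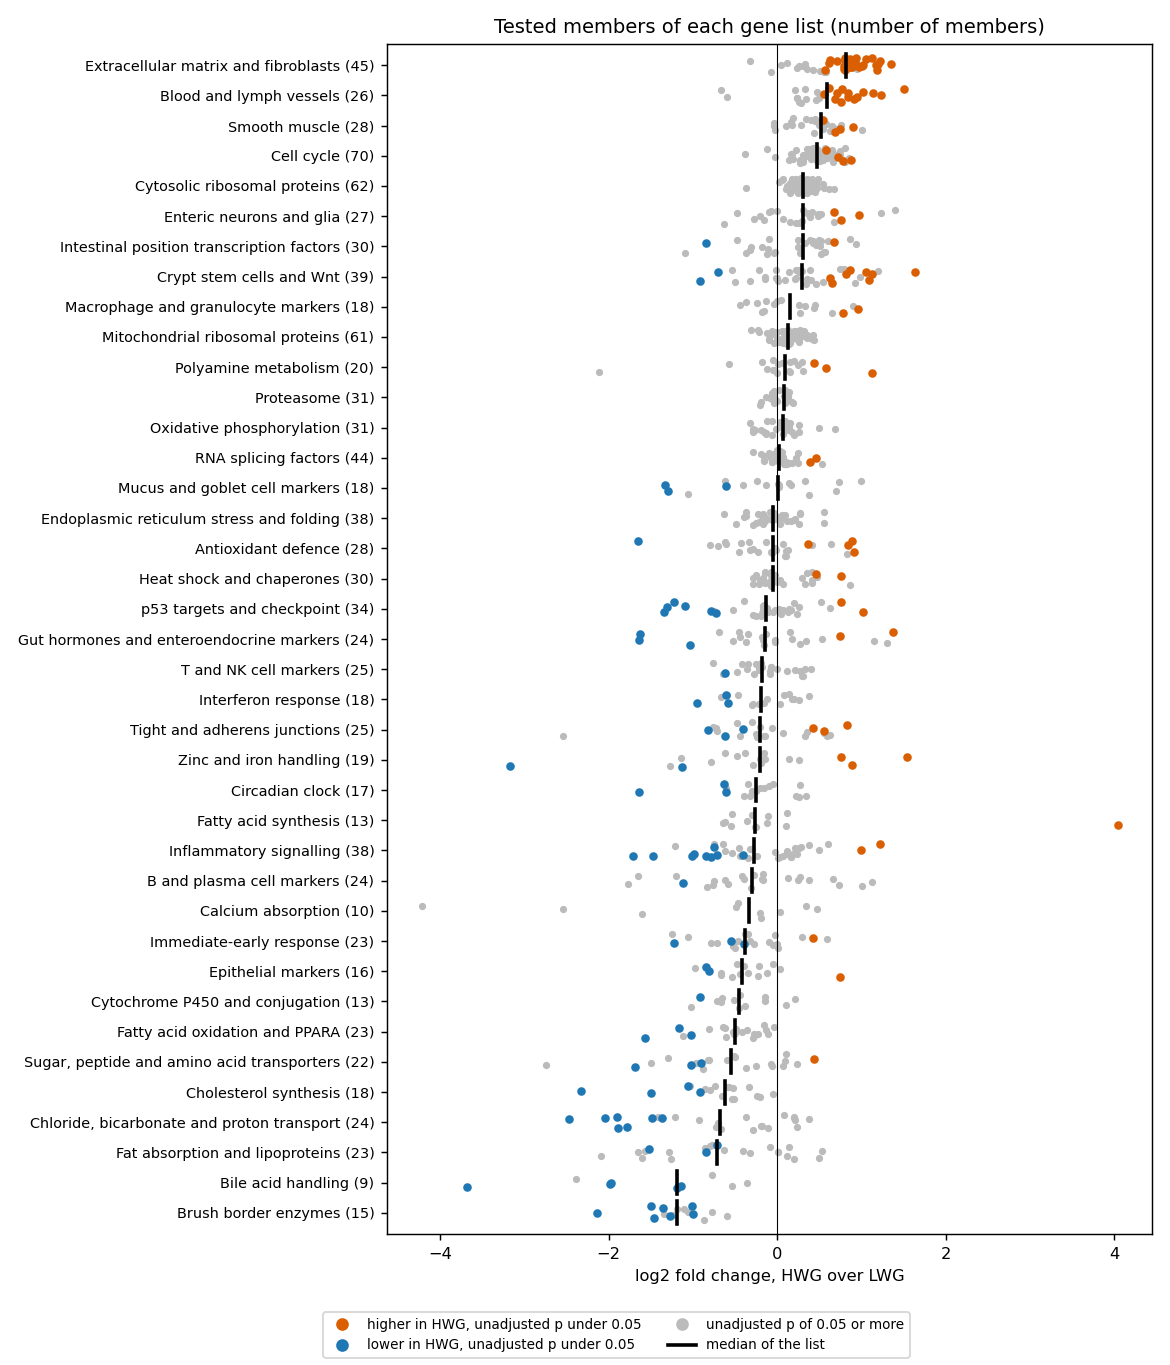
Each point is a tested member of a gene list at its log2 fold change of HWG over LWG, coloured where the unadjusted p was under 0.05 (orange, higher in HWG; blue, lower in HWG), and black bars give the medians. Matrix and fibroblast genes (median 0.82) and vessel genes (0.59) lie at the top, and brush border enzymes (-1.19) and bile acid genes (-1.19) at the bottom.

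Of 39 stem cell and Wnt genes, 8 were higher (20.5%, against 5.15% over all genes) and 2 were lower (5.13%, against 5.41%), with a median of 0.29. The tissue is bulk, so these levels were not measured in crypts alone. WNT5A, a Wnt ligand made in the stroma, was at 35.1, 24.1, 13.0 and 25.8 CPM in HWG and at 14.9, 10.8, 11.5 and 8.88 CPM in LWG (log2 fold change 1.09, SE 0.31, unadjusted p = 0.00406). SOX9, a transcription factor of crypt cells, was at 8.94, 7.91, 6.41 and 17.9 CPM in HWG and at 4.61, 6.89, 3.50 and 3.89 CPM in LWG (log2 fold change 1.12, SE 0.33, unadjusted p = 0.00459). OLFM4, a marker of stem cells in humans, was at 851, 1158, 956 and 261 CPM in HWG and at 132, 403, 195 and 306 CPM in LWG (log2 fold change 1.64, SE 0.70, unadjusted p = 0.0348), with HWG goose 4 inside the LWG range. The others higher were the Wnt target AXIN2, the Wnt enhancer RSPO3, DLL1, EPHB2 and DKK3, and the lower ones were IHH, a signal from villus cells to the stroma, and LGR4. Of 70 cell cycle genes, 67 lay above 0 (median 0.47), 4 were higher past the threshold (BUB1B, RACGAP1, TOP2A and MCM5, or 5.71%, near the 5.15% over all genes) and 0 were lower, and the sum of the list overlapped, at 3629 to 5584 CPM in HWG and 2312 to 4956 CPM in LWG. The cell cycle median was 0.13 among the libraries with more GATA4 and 0.87 among those with more HOXA10. Of 34 p53 targets, 6 were lower (TSPAN1, PMAIP1, CDKN1A, TP53I3, APAF1 and FAS, or 17.6%, against 5.41% over all genes). Another 2 were higher (THBS1 and IGFBP3, or 5.88%, near the 5.15% over all genes). CDKN1A, the inhibitor p21 of the cell cycle, was at 35.6, 22.3, 90.7 and 42.0 CPM in HWG and at 113, 71.3, 183 and 116 CPM in LWG (log2 fold change -1.35, SE 0.48, unadjusted p = 0.0156).

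Of 38 genes of inflammatory signalling, 9 were lower in HWG (23.7%, against 5.41% over all genes). Another 2 were higher (5.26%, near the 5.15% over all genes). The median of the list was -0.27, and 0.0024 without LWG goose 3. IL20RA, a receptor subunit for cytokines of the IL-10 family, was at 15.3, 20.3, 24.2 and 9.58 CPM in HWG and at 40.1, 24.4, 37.6 and 90.2 CPM in LWG (log2 fold change -1.47, SE 0.37, unadjusted p = 0.00166). NOS2, the inducible nitric oxide synthase, was at 3.03, 9.18, 12.4 and 4.80 CPM in HWG and at 12.8, 17.99, 56.0 and 9.28 CPM in LWG (log2 fold change -1.71, SE 0.55, unadjusted p = 0.00805). Other lower genes were IL10RB and IL22RA1, receptor subunits of the same family, the inhibitors TNFAIP3 and SOCS1, the cytokine IL15, TRAF3 and MAP3K8, with log2 fold changes from -0.41 to -1.02. TNFAIP2 and the chemokine CXCL14 were higher, with log2 fold changes of 1.22 and 0.9987. IL6, IL1B and IL10 were too low to be tested, with at most 9, 10 and 7 counts in any library. In the interferon response, TAP2, IFIH1 and IRF7 were lower among 18 genes (16.7%, against 5.41% over all genes, median -0.19). The median of this list ranged from -0.31 to 0.017 with 1 goose left out. Its median difference was -0.82 among the libraries with more GATA4 and 0.21 among those with more HOXA10.

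Few immune cell markers reached the threshold. Among T and NK cell markers 1 of 25 (IL2RB) and among B and plasma cell markers 1 of 24 (CIITA) was lower, with medians of -0.18 and -0.29 that were 0.096 and 0.57 without LWG goose 1, and among macrophage and granulocyte markers 2 of 18 were higher (median 0.15). The shares were 4% and 4.17% lower and 11.1% higher, against 5.41% lower and 5.15% higher over all genes. MARCO, a scavenger receptor of macrophages, was at 33.6, 64.2, 43.8 and 32.5 CPM in HWG and at 17.6, 23.6, 19.1 and 29.3 CPM in LWG (log2 fold change 0.96, SE 0.24, unadjusted p = 0.0013), and the other was CSF3R (0.78). PIGR, which carries IgA through the epithelium, was at 3053, 3042, 2784 and 3259 CPM in HWG and at 1021, 2406, 2303 and 1500 CPM in LWG (log2 fold change 0.75, SE 0.34, unadjusted p = 0.0493), so that the groups did not overlap. JCHAIN, the chain that joins IgA units, was at 2898, 3638, 2997 and 956 CPM in HWG and at 1009, 812, 1469 and 1924 CPM in LWG and did not reach the threshold (log2 fold change 1.01, SE 0.50, unadjusted p = 0.0634), with HWG goose 4 within the LWG range.

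The epithelial markers had a median of -0.42 over 16 genes, with PIGR higher and HNF4A and SPINT1 lower. These made 6.25% higher and 12.5% lower, against 5.15% and 5.41% over all genes. EPCAM was at 878, 698, 1577 and 858 CPM in HWG and at 1237, 1091, 1216 and 1543 CPM in LWG (log2 fold change -0.34, SE 0.29, unadjusted p = 0.255), a difference within the spread between geese. Of 18 mucus and goblet cell genes, BCAS1, the membrane mucin MUC13 and GCNT3 were lower (log2 fold changes -1.33, -1.30 and -0.60). They made 16.7% of the list, against 5.41% over all genes, and the median was 0.01. LOC106042592, annotated in the table as an intestinal mucin-like protein and named after its values were seen, was at 280, 511, 1175 and 494 CPM in HWG and at 1678, 1360, 1628 and 1778 CPM in LWG (log2 fold change -1.39, SE 0.36, unadjusted p = 0.00215). Among 25 junction genes, OCLN (occludin), TJP3 and MPP5 were lower (12%), and JAM3, CLDN5 and CGNL1 were higher (12%), against 5.41% and 5.15% over all genes. OCLN, a tight junction protein, was at 55.0, 37.1, 77.1 and 74.5 CPM in HWG and at 106, 122.9, 90.9 and 109 CPM in LWG (log2 fold change -0.82, SE 0.20, unadjusted p = 0.0014), whereas CLDN5 is a claudin of endothelial cells. Of 24 hormone and enteroendocrine genes, SLC6A4, CCK and ADGRG4 were lower (12.5%) and NKX2-2 and PCSK2 were higher (8.33%). SLC6A4, the transporter that clears serotonin, was at 8.74, 17.6, 39.5 and 22.9 CPM in HWG and at 51.6, 52.0, 83.6 and 89.4 CPM in LWG (log2 fold change -1.64, SE 0.39, unadjusted p = 0.00101). CCK, the satiety hormone cholecystokinin, was at 31.5, 26.9, 29.2 and 21.7 CPM in HWG and at 69.8, 45.8, 45.8 and 61.9 CPM in LWG (log2 fold change -1.03, SE 0.30, unadjusted p = 0.00433), and neither gene overlapped between the groups.

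Counts in the remaining lists were at most 3 in either direction. Enteric neuron and glia genes had 3 of 27 higher (STMN2, PENK and TAC1, or 11.1%, against 5.15% over all genes, median 0.30). Immediate-early genes had DUSP1, JUN and FOS lower and DUSP6 higher among 23 (13.0% lower, median -0.39), and clock genes had CRY1, NPAS2 and TEF lower among 17 (17.6%, median -0.25), against 5.41% lower over all genes. NPAS2 was at 24.5, 37.3, 28.2 and 14.7 CPM in HWG and at 28.4, 17.1, 150 and 132 CPM in LWG, so that LWG geese 3 and 4 alone stood above the HWG geese. Position transcription factors had HOXB4 higher and HNF4A lower among 30 (3.33% each, median 0.30). Cytochrome P450 and conjugation genes had SULT1B1 lower among 13 (7.69%, median -0.45). Heat shock genes had HSF2 and SERPINH1, a collagen chaperone, higher among 30 (6.67%, median -0.05). Splicing factors had HNRNPLL and PRPF4 higher among 44 (4.55%, median 0.02). Over all genes, 5.15% were higher and 5.41% lower. Red blood cell markers had 0 of 2 past the threshold (median 0.48), and pancreatic and liver markers had AMBP and CLPS lower among 4 (50%, median -0.71). Of the cytosolic ribosomal proteins, 0 of 62 reached the threshold although 61 lay above 0 (median 0.31), and HWG goose 1 had 60980 CPM of them, against 29670 to 37210 CPM in the other HWG geese and 28560 to 37330 CPM in the LWG geese. Endoplasmic reticulum genes, proteasome subunits, mitochondrial ribosomal proteins and oxidative phosphorylation subunits had 0 of 38, 0 of 31, 0 of 61 and 0 of 31, with medians of -0.05, 0.09, 0.12 and 0.07.

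The GO terms and KEGG pathways that the authors' table pairs with its genes were counted at the same threshold, and those given here were picked after their counts were seen because they touch the lists above; other terms, not listed, had shares as high. Higher in HWG were 21 of 56 genes of the term extracellular matrix, 12 of 29 of collagen trimer and 12 of 40 of negative regulation of canonical Wnt signaling pathway, against 5.15% over all genes. Of the pathways, 28 of 146 genes of ECM-receptor interaction and 18 of 85 of complement and coagulation cascades were higher. Lower in HWG were 8 of 36 genes of brush border and 13 of 80 of apical plasma membrane, against 5.41% over all genes. Lower genes also made up 5 of 17 in nitrogen metabolism, 7 of 33 in vitamin digestion and absorption, 6 of 26 in steroid biosynthesis and 11 of 65 in mineral absorption.

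The levels in the Con geese were set beside those of both other diets. The comparisons of LWG with Con and of HWG with LWG share the LWG libraries, so an unusual LWG level enters both. HWG over Con and HWG over LWG share the HWG libraries in the same way. The values are given side by side without further reading. The smallest adjusted p in edgeR was 0.190 for LWG over Con and 0.858 for HWG over Con. HTRA1 was at 253, 193, 173 and 230 CPM in Con geese 1 to 4, with log2 fold changes of -1.14 for LWG over Con (SE 0.20, unadjusted p = 7.90e-05) and 0.04 for HWG over Con (SE 0.20, unadjusted p = 0.837). THBS1 had -0.89 for LWG over Con and 0.13 for HWG over Con, and LYVE1 had -1.10 and 0.13. CPED1 was lower in LWG than in Con (log2 fold change -1.59, SE 0.25, unadjusted p = 2.55e-05), and HWG over Con was -0.47. On the lower side, TMIGD1 had 1.55 for LWG over Con and -0.59 for HWG over Con, FABP6 had 1.67 and -0.30, and LOC106035109 had 1.44 and 0.22. GJA1, PGAP1, PCGF5 and FAM126B had another order of values. GJA1 was at 38.7, 40.6, 46.1 and 55.8 CPM in Con, with -0.10 for LWG over Con and 0.89 for HWG over Con (SE 0.18, unadjusted p = 0.00026). PGAP1 was at 17.4, 19.4, 23.7 and 21.5 CPM in Con, with 0.09 for LWG over Con and -1.77 for HWG over Con (SE 0.33, unadjusted p = 0.000116). PCGF5 and FAM126B had 0.05 and 0.06 for LWG over Con and -1.22 and -1.27 for HWG over Con. Of 25 genes that the study had named for LWG against Con, 13 were lower in HWG than in LWG and 6 were higher. They made 52% and 24% at an unadjusted p under 0.05, against 5.41% and 5.15% over all genes. The 25 were chosen on the same LWG libraries, so the list is not independent of this comparison. The paper's text names CPED1, HTRA1 and THBS1 as up-regulated and TMIGD1 and SLC6A4 as down-regulated in LWG. With groups taken from GEO's labels, LWG over Con has the opposite sign here in each of these genes. Whether the labels or the stated directions are exchanged was not settled here, since the columns with the authors' own comparisons were not used. If the Con and LWG labels are exchanged, all values given as HWG over LWG in this report are HWG over Con. The values given as HWG over Con would then be HWG over LWG, with 619 genes (4.16%) at an unadjusted p under 0.05 in edgeR.

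**Figure D5:**
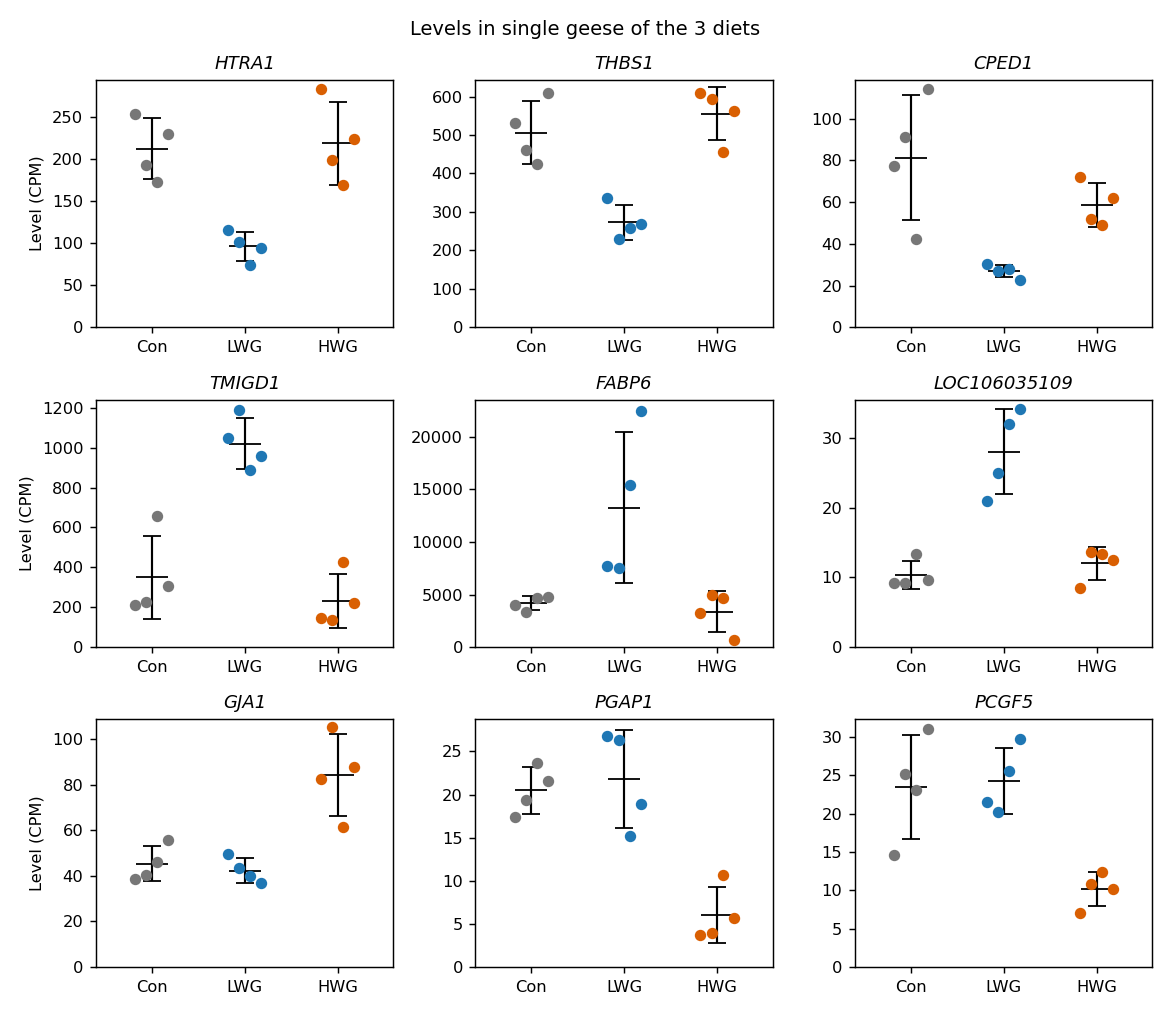
Points give the level (CPM, linear axis from 0) of 9 genes in the 4 geese of each of the Con (grey), LWG (blue) and HWG (orange) groups, with the mean as a long bar and the SD as whiskers. HTRA1, THBS1 and CPED1 are lowest in LWG and TMIGD1, FABP6 and LOC106035109 highest in LWG, while GJA1 is highest and PGAP1 and PCGF5 are lowest in HWG.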

How the data were processed

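RNA was sequenced from the jejunum of 4 geese in each of the HWG, LWG and Con groups, grouped by GEO's labels. The deposited table held a count and an FPKM value for each gene and library, and the submitters' processing notes name fastp, HISAT2, StringTie and edgeR, with versions not given in the sources used here. The counts sum to more than the read pairs implied by the paper's sequencing yield. How they were derived is not stated, so the number of read pairs behind a count is unknown. FPKM values were made by the authors, scaled by gene length and library size. Small deposited counts gathered at multiples of 4, so no counting intervals were computed. The columns holding the authors' own comparisons were not used.

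Counts were tested with edgeR 4.0.16 in R 4.3.3 (TMM scaling, filterByExpr, quasi-likelihood test, Benjamini-Hochberg adjustment over 14863 genes), with all 12 libraries in the fit and HWG over LWG as the contrast. The geese are separate animals with 1 library each. The p-values thus weigh a difference against the spread between animals and between tissue pieces, which cannot be told apart. limma 3.58.1 was run on log2(FPKM + 0.1) and log2(FPKM + 1) (mean FPKM 0.5 or more), where fold changes of low genes are understated, and DESeq2 1.42.0 on the counts. Python 3.11.15, numpy 2.4.6, pandas 2.3.3 and matplotlib 3.10.9 served for tables and plots. The edgeR fit, but not DESeq2 or limma, was tested on simulated data.

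The members and the 42 gene lists were chosen with earlier results of these data known. Named genes were the 10 symbol-bearing genes of smallest p on either side, the 2 members with the smallest p of lists with at least 3 members and at least 2 times the background share past an unadjusted p of 0.05, and FABP6, GATA4, HOXA10, PIGR, JCHAIN, ODC1, SAT1, EPCAM and ACTG2. Other genes were named after their values were seen. Alternatives covered scaling, filters, robust prior, counts divided by 4, the HWG and LWG libraries alone, a replicate block, a fold limit, the tools above and leaving out each goose. 3 more were chosen after seeing the data: a term for the GATA4 and HOXA10 balance, the libraries with more GATA4 alone, and leaving out HWG geese 1 and 2 together. Some items are not reported here.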

Additional observations from a re-analysis of the deposited data

Results flagged for a closer look

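In 37 of 386 sets of 4 geese, 1 goose lay far from the other 3 by Dixon's criterion. Chance gives about 1 in 20 for independent, normally spread values. CPM of many genes from the same libraries are not independent, so no excess over chance is claimed. Of the 37 sets, 22 concerned HWG goose 3. It was the highest HWG goose in brush border genes, with 2632 CPM of ACE, 545.9 CPM of CDHR5, 605.4 CPM of DPP4, 89.4 CPM of GGT1, 789.6 CPM of MEP1B, 204 CPM of MYO1A, 4008 CPM of SI and 179.5 CPM of TMPRSS15, and a brush border sum of 18320 CPM. It was also the highest in lipid and ion genes, with 13.9 CPM of CREB3L3, 574.5 CPM of CPT1A, 44.96 CPM of AGPAT2, 998.3 CPM of CALB1, 47.5 CPM of CLCN2 and 18.8 CPM of FGF19, and in signalling genes, with 32.7 CPM of FAM126B, 145.1 CPM of ADGRG4, 163.8 CPM of APAF1, 51.1 CPM of IL10RB and 368.2 CPM of IL22RA1. It was the lowest HWG goose in DUSP6 (19.1 CPM) and PECAM1 (102.8 CPM).

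HWG goose 4 stood apart with 8.05 CPM of HSD17B7, the lowest of its group, and with 3.82 CPM of BEST4 and 35.6 CPM of HOXA10, the highest. HWG goose 2 was the highest in FN1, at 1452 CPM. Among the LWG geese, goose 1 stood apart in COL6A1 (327.8 CPM) and TRAF3 (58.3 CPM), goose 2 in FADS6 (0.0984 CPM), NQO1 (55.2 CPM) and TXNRD3 (35.3 CPM), goose 3 in PPARA (24.5 CPM), CALB1 (19960 CPM), FGFR4 (36.7 CPM), JUN (202.9 CPM) and SOCS1 (37.3 CPM), and goose 4 in CREB3L3 (30.8 CPM).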

How the results depend on the processing

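Of 3828 values of 183 named genes under the alternatives, 3744 kept their direction and side of the adjusted threshold, 72 passed it only in an alternative and 12 changed direction. No gene passed the threshold in edgeR with all geese and diet as the only term, so none could lose a call. Many of the genes were named for a small p or after their values were seen, which favours an unchanged direction, so the count is no measure of robustness. The fold change of ODC1 was 0.11 in limma at either pseudocount (0.113 and 0.106), 0.013 without HWG goose 1, 0.0072 without HWG goose 4, 0.16 without LWG goose 4 and 0.038 without HWG geese 1 and 2 together. Without those geese ACTG2 was -0.51 and MEP1B 0.019. NR1H4 was 0.15 without LWG goose 2 and 0.054 in the libraries with more GATA4 alone, and without LWG goose 3 CALB1 was 3.29 and NR0B2 0.060. Over all geese left out in turn, ODC1 ranged over -0.14 to 0.16, CALB1 -7.55 to 3.29, NR0B2 -1.10 to 0.060 and NR1H4 -0.54 to 0.15. The cause was not tested. Adjusted calls numbered 45 higher and 65 lower in DESeq2, and the GATA4 and HOXA10 term in edgeR gave 2 and 3. At an unadjusted p under 0.05 that term gave 1189 higher, 1501 lower and 12 brush border genes, limma gave 516 and 520 lower genes at its 2 pseudocounts, and the libraries with more GATA4 alone gave 17 matrix and 4 brush border genes. Without HWG geese 1 and 2 together there were 256 higher and 207 lower genes, with 12 matrix, 6 vessel, 1 brush border and 2 bile acid genes and a matrix median of 0.50.

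Leaving out each goose in turn gave 0 to 31 genes higher and 0 to 77 lower at an adjusted p under 0.05, and 537 to 1465 higher and 418 to 1539 lower unadjusted. The members past the threshold were 22 to 34 for matrix, 8 to 17 for vessels, 4 to 13 for the brush border and 2 to 7 for bile acids, with medians of 0.68 to 1.02, 0.52 to 0.76, -2.12 to -0.85 and -1.61 to -0.96. Whether replicate numbers pair the geese was not settled. Deviations of same-numbered HWG and LWG geese correlated at -0.282 to 0.148 and those of other numbers at -0.229 to 0.297. With the Con geese included, the largest correlation was in a same-numbered pair (Con goose 3 and HWG goose 3, 0.377). Other same-numbered pairs were negative, such as Con goose 1 and LWG goose 1 (-0.166). With the replicate block, edgeR called 3 genes higher (HTRA1, LYVE1 and PDGFD) and 5 lower (FAM3B, PANK3, CIITA, LOC106049921 and TMIGD1), 12 brush border genes were lower, and 38.6% of the genes past the unadjusted threshold were higher. List medians changed sign under some alternatives, both near 0 (antioxidant, heat shock, mucus, proteasome and oxidative phosphorylation among them) and farther from it, with ranges of -0.40 to 0.57 for B and plasma cells, -0.67 to 0.45 for calcium absorption, -0.34 to 0.0024 for inflammatory signalling and -0.03 to 0.79 for smooth muscle. With 4 geese a group, the calls depended on the tool and on single geese. How far the spread between geese limited them was not tested.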
